A study of Mus musculus with 8 samples.

Results

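Hand1 and Hand2 are the only 2 HAND genes of the mouse, and they were followed here in RNA-seq libraries of embryonic hearts. Both were chosen by name, were found by Ensembl identifier among the 49315 genes counted, and passed the filter on low counts together with 17163 genes in all. The libraries came from whole hearts taken at E9.5, 4 from wild-type embryos and 4 from embryos homozygous for Tbx20EH1Mut. Each library pooled 3 hearts, so the spread given below is a spread between pools. Tbx20EH1Mut is a germline allele made with CRISPR/Cas9 on a C57BL/6J background. It exchanges 2 neighbouring amino acids in the engrailed homology 1 (EH1) motif through which the T-box factor Tbx20 binds TLE corepressors, and the methods describe 1 founder with the exchange in an otherwise wild-type allele. Every cell of the mutant embryos carried the allele, and no reporter or Cre was involved. The comparison asks how the level of each paralog, and the balance between both, differed when this contact was lost.

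HAND proteins are basic helix-loop-helix (bHLH) transcription factors of the Twist family. They bind DNA at E-box sequences as dimers, often with an E protein, while Id proteins, which lack the DNA-binding region, take E proteins out of such dimers. In the looping mouse heart, Hand1 transcripts are known to mark the outer curvature of the future left ventricle, whereas Hand2 is broader, with strong expression in the future right ventricle, the outflow tract, the second heart field and the endocardium. Both genes are also active in the pharyngeal arches, in neural crest derivatives and around the heart, and Hand1 in the trophoblast.

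Hand1 (ENSMUSG00000037335) lies on the minus strand at chr11:57828705-57832818 of GRCm38, and Hand2 (ENSMUSG00000038193) on the plus strand at chr8:57320983-57324633. Their counted exons add up to 1997 and 2351 bases, and their coding sequences in GENCODE M21 hold 216 and 217 codons. The stretch of coding sequence in which they are most alike is shown because it bears on whether reads of one paralog could be counted on the other. It spans coding bases 323 to 442 of Hand1 (chr11:57831345-57831464, minus strand) and 338 to 457 of Hand2 (chr8:57322244-57322363, plus strand). Capitals mark the bases that differ.
Hand1: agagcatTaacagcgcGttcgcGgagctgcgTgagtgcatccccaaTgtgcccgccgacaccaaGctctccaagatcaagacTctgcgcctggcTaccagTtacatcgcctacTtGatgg
Hand2: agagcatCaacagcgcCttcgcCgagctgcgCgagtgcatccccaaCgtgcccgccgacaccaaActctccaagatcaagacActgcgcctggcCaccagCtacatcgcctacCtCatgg
Of these 120 bases, 109 were identical. The 11 mismatches fell in 10 of the 39 whole codons, and all 10 of those codon pairs were synonymous under the standard genetic code. The longest identical run between the Hand1-203 and Hand2-201 transcripts was 17 bases. Even in the most alike window of 150 bases, the length of 1 read, they differed at 20 positions.

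The libraries held between 33359322 and 49523086 counts on genes in wild-type and between 36250675 and 38357025 in Tbx20EH1Mut. Levels are given as counts scaled to library size (CPM), and as CPM per kb of exon where genes are compared with each other. Tbx20 itself stood at 353 to 380 CPM in wild-type and 215 to 317 CPM in Tbx20EH1Mut libraries, with a log2 fold change of -0.46 ± 0.13 (SE, edgeR adjusted p = 0.0273, or -0.27 and 0.135 with the 3 libraries named below set aside). Gene counts do not show the amino acid exchange, so this level does not check the labels. Some libraries stood apart in RNA of other tissues. The summed level of 7 foregut and endoderm markers was 60.9 CPM in wild-type replicate 2 and 1.08 to 8.27 CPM in the other wild-type libraries, and it was 200.3, 167.2, 31.9 and 80.9 CPM in Tbx20EH1Mut replicates 1 to 4. Wild-type replicate 2 and Tbx20EH1Mut replicates 1 and 2 were the highest within their genotype, and results are also given with these 3 libraries set aside. Tbx20EH1Mut replicate 4, which was then kept, held more of these markers than any wild-type library.

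Hand1 fell in Tbx20EH1Mut hearts to 17.6% of its wild-type level. Its counts were 3133, 5454, 4578 and 4632 in wild-type replicates 1 to 4, and 636, 679, 490 and 762 in Tbx20EH1Mut replicates 1 to 4. Scaled to library size, these were 95.1, 111.1, 91.2 and 101.1 CPM in wild-type. In Tbx20EH1Mut they were 16.5, 18.0, 15.3 and 20.2 CPM. The highest mutant library was thus far below the lowest wild-type library, and the transcript was still counted at least 490 times in each mutant library. The mean was 99.6 ± 8.66 CPM in wild-type and 17.5 ± 2.11 CPM in Tbx20EH1Mut (SD, n = 4 each). The log2 fold change was -2.51 ± 0.12 (SE), a 5.69-fold lower level, with an adjusted p of 5.77e-06 in edgeR's quasi-likelihood test. Two-sided exact permutation of the CPM values gave p = 0.0286, the smallest that 4 libraries against 4 allow. With the 3 libraries set aside, the log2 fold change was -2.42.

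Among all 17163 genes tested, including weakly expressed ones, the log2 fold change of Hand1 ranked 72 from the most lowered. Of the 17163 genes, 24.6% passed the threshold used here, an adjusted p of 0.05 or less together with a log2 fold change of 0.5 or more in size, and 12.1% passed it in the lower direction. Of the 2 paralogs, Hand1 passed it and Hand2 did not.

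Hand2 was slightly lower in Tbx20EH1Mut hearts. Its counts were 6216, 8939, 9246 and 8599 in wild-type replicates 1 to 4, and 6007, 5611, 4516 and 6138 in Tbx20EH1Mut replicates 1 to 4. The levels were 188.6, 182.1, 184.2 and 187.6 CPM in wild-type. They were 155.6, 149.0, 141.2 and 162.7 CPM in Tbx20EH1Mut. The genotypes did not overlap, the wild-type libraries lay within a few CPM of each other, and the mutant libraries were more spread. The mean went from 185.6 ± 3.05 to 152.1 ± 9.19 CPM (SD, n = 4 each), with a log2 fold change of -0.29 ± 0.09 (SE) and 81.9% of the wild-type level. The edgeR adjusted p was 0.0437, but the fold change was under 0.5, and 29.3% of all genes tested had an adjusted p this low or below 0.05. The adjusted p rose above 0.05 in each of the 8 fits that left out 1 library, where it ranged from 0.0527 to 0.111, and was 0.117 without the 3 set-aside libraries (log2 fold change -0.29). The exact permutation p was 0.0286. Separation of all libraries by genotype was common, with 30.5% of genes showing no overlap in either direction and 15.7% in the lower direction.

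**Figure D1:**
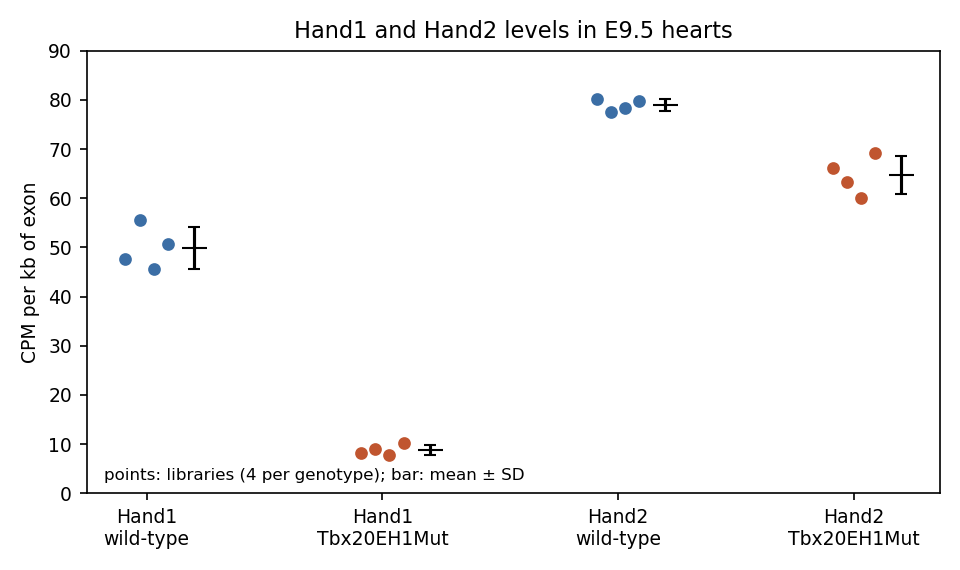
Level of Hand1 and Hand2 in each library, in CPM per kb of exon, by genotype; points are libraries and bars the mean ± SD (n = 4). Hand1 lies at 7.67 to 10.1 CPM per kb in Tbx20EH1Mut and at 45.7 to 55.6 in wild-type, while Hand2 lies at 60.0 to 69.2 and 77.4 to 80.2.

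Per kb of exon, Hand2 was the more abundant paralog in every library. In wild-type hearts the mean was 79.0 ± 1.30 CPM per kb for Hand2 and 49.9 ± 4.34 for Hand1. In Tbx20EH1Mut hearts it was 64.7 ± 3.91 for Hand2 and 8.77 ± 1.06 for Hand1. The level of Hand2 was therefore 1.59 ± 0.146 times that of Hand1 in wild-type and 7.43 ± 0.584 times in Tbx20EH1Mut. The order of both paralogs was the same in both genotypes, and the distance between them was wider in the mutant. Added together, they gave 128.8 ± 3.86 CPM per kb in wild-type and 73.5 ± 4.81 in Tbx20EH1Mut. The sum was 43.0% lower, and Hand1 made up 74.3% of that difference. The share of Hand1 in the sum lay between 36.8% and 41.8% in wild-type and between 11.1% and 12.8% in Tbx20EH1Mut.

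The response of both paralogs was compared directly through the ratio of their counts within each library, which does not depend on how libraries are scaled. Hand1 had 0.504, 0.610, 0.495 and 0.539 counts per Hand2 count in wild-type replicates 1 to 4. The values in Tbx20EH1Mut replicates 1 to 4 were 0.106, 0.121, 0.109 and 0.124. Every mutant ratio was thus well below every wild-type ratio. On the log2 scale, with 0.5 counts added, the mean ratio went from -0.90 ± 0.14 to -3.12 ± 0.11 (SD, n = 4 each). The difference of -2.22, or 4.67-fold, had p = 0.0286 in the exact two-sided permutation test over 70 arrangements, the smallest possible value. The paralogs thus differed in the size of their response, by more than the spread between libraries.

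Antisense to Hand2 is Hand2os1 (ENSMUSG00000100510), a long noncoding RNA on the minus strand known for its part in the control of Hand2. Its counted exons lay between chr8:57304265-57320859 and shared no base with the Hand2 exons. In GENCODE M21 the gene is longer (chr8:57281117-57324233) and overlaps the body of Hand2, so the counts cover only its part upstream of Hand2. The 250 bases before the Hand2 start (GRCm38.p6, chr8:57320733-57320982, plus strand, from RefSeq) are shown because they hold 127 bases of the counted Hand2os1 exon nearest to Hand2 (in reverse complement), followed by the 123 bases between the counted exons of both genes. Capitals mark matches to CANNTG, the E-box to which HAND dimers can bind.
Hand2 upstream window: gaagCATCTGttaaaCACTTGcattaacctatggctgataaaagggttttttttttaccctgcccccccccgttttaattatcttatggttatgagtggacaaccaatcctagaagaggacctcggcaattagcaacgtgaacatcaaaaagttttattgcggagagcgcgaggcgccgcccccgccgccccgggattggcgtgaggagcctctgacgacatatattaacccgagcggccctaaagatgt
The 2 E-box matches began 246 and 235 bases before the start. Of 32851 promoter windows of this length, 66.2% held at least 1 such match on either strand (the motif reads the same on both). A GATA sequence, AGATAA on either strand, was matched once, 172 bases before the start, and occurred in 9.99% of promoters. The T-box core AGGTGT had no match on either strand, against 11.8% of promoters with one. CCAAT was matched at 147 and 55 bases before the start, and 33.8% of promoters held it. No motif overlapped another, and each match is only a match of letters.

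Hand2os1 was not called between the genotypes. Wild-type replicates 1 to 4 had 89.9, 41.9, 60.8 and 69.7 CPM of it. In Tbx20EH1Mut replicates 1 to 4 it was 65.4, 63.0, 89.4 and 92.5 CPM. The genotypes overlapped, and the log2 fold change was 0.24 ± 0.22 (SE, edgeR adjusted p = 0.428). The log2 ratio of Hand2os1 to Hand2 counts was -1.55 ± 0.44 in wild-type and -0.99 ± 0.30 in Tbx20EH1Mut (SD, n = 4 each), a difference of 0.56 (exact two-sided permutation p = 0.0857). Without wild-type replicate 1, in which this ratio was highest among the wild-type libraries, the difference was 0.72 (exact p = 0.0286). This ratio was added after the levels had been seen.

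**Figure D2:**
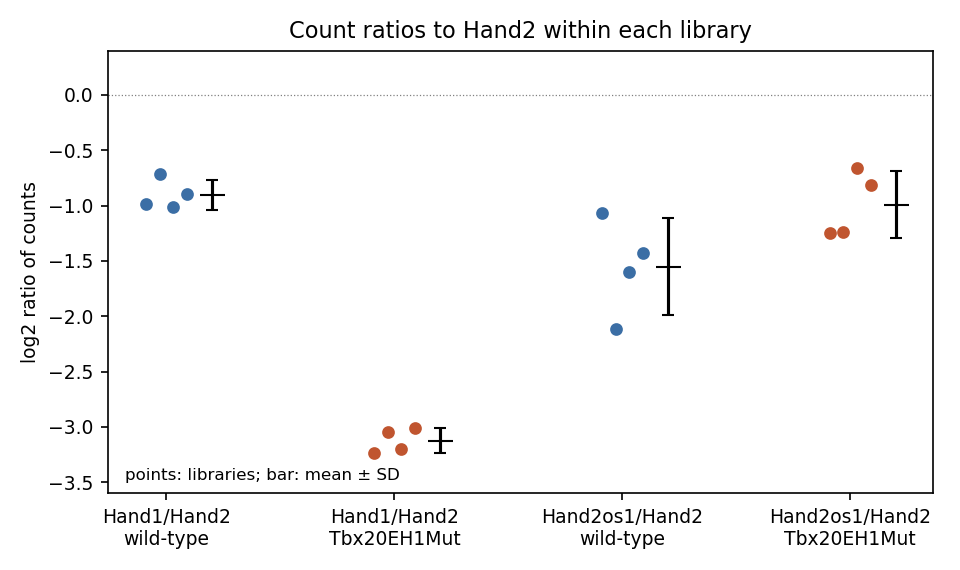
Log2 ratio of Hand1 counts to Hand2 counts and of Hand2os1 counts to Hand2 counts in each library; points are libraries and bars the mean ± SD (n = 4). The Hand1 ratios of the genotypes are separated by a gap, with means of -0.90 and -3.12, while those of Hand2os1 overlap.

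No other gene tested within 100 kb of either paralog was called lower, where 12.1% of all genes were. Next to Hand1, Sap30l (18488 bases away), a component of histone deacetylase complexes, had a log2 fold change of -0.20 ± 0.10 (edgeR adjusted p = 0.153). Galnt10 (41191 bases away), which starts O-linked sugar chains, had -0.49 ± 0.26 (adjusted p = 0.181). The noncoding 2010001A14Rik (27288 bases away) rose, from 4.71 ± 1.51 to 9.79 ± 1.47 CPM (1.06 ± 0.25 on the log2 scale, adjusted p = 0.0123). Next to Hand2, the noncoding Gm34030 (7059 bases away) had 0.29 ± 0.28 (adjusted p = 0.454). The noncoding 5033428I22Rik (7485 bases away) had 0.14 ± 0.14 (adjusted p = 0.454). Of the 6 neighbours tested, Hand2os1 included, 1 was therefore called, against 24.6% of all genes tested.

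Level per library was next set against the heart muscle and the other tissues in the samples, since in bulk RNA fewer cells of a type and less RNA per cell cannot be told apart. For all lists of tissue genes, the shares to set counts against are the 12.5% of all genes called higher and the 12.1% called lower. Of 11 cardiomyocyte genes, 1 was called higher and 1 lower, with a median log2 fold change of 0.07 against 0.00 over all genes tested. The called genes were Myl3, a myosin light chain (0.75 ± 0.25, adjusted p = 0.0451), and Actn2, a protein of the Z-disc (-0.52 ± 0.16, adjusted p = 0.0387). Their calls were lost in 6 and 7 of the 8 fits without 1 library. That of Actn2 was also lost without the 3 set-aside libraries (adjusted p = 0.149). Actc1, cardiac actin, and Myl4, an atrial light chain, were not called (-0.37 ± 0.15 and 0.32 ± 0.28). The summed level of the 11 genes overlapped, at 27670 to 40020 CPM in wild-type and 29550 to 46170 CPM in Tbx20EH1Mut. Labelled as heart, all libraries thus carried heart muscle RNA in abundance.

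Relative to these cardiomyocyte counts, Hand1 was lower by 2.58 on the log2 scale, or 5.98-fold (exact two-sided permutation p = 0.0286, the smallest possible). The mean log2 ratio was -8.47 ± 0.35 in wild-type and -11.05 ± 0.34 in Tbx20EH1Mut (SD, n = 4 each). With the median log2 level of the markers in place of their sum, the difference was -3.07 (exact p = 0.0286). For Hand2 the same difference was -0.36, with means of -7.57 ± 0.22 and -7.92 ± 0.32 (exact p = 0.114). It reached an exact p of 0.0286 when the median log2 level of the markers replaced their sum (-0.88), and without Tbx20EH1Mut replicate 1 (-0.47). In every mutant library that median was the level of Myl3, which was itself called higher. In wild-type it was the level of Ttn in replicate 2 and of Tnni1 in the others, both uncalled cardiomyocyte genes. The values with the median, for Hand1 and Hand2 alike, thus include this change of reference gene.

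Tissues other than muscle also differed between the genotypes. All 6 erythroid genes fell (median log2 fold change -2.11), and their sum lay at 1750 to 4580 CPM in wild-type and 319 to 1022 CPM in Tbx20EH1Mut. Hba-x, an embryonic globin, went from between 612.9 and 1452 CPM to between 96.5 and 313.4 CPM. Foregut and endoderm genes had 3 of 7 called higher and none lower (6 of 7 higher without the 3 set-aside libraries), with a sum of 31.9 to 200.3 CPM in Tbx20EH1Mut. The calls of Foxa2, an endoderm factor, and Epcam, an epithelial adhesion molecule, were lost in 6 and 5 of the 8 fits without 1 library, with adjusted p up to 0.109 and 0.0811. Shh, a signal of the foregut epithelium, had 7.85 to 23.9 CPM there and 0.0398 to 4.03 CPM in wild-type (log2 fold change 3.48 ± 0.89, adjusted p = 0.0170, or 0.0549 without wild-type replicate 4). Without wild-type replicate 2 its log2 fold change was 5.25, and without the 3 set-aside libraries 5.01. Of 7 endothelial and endocardial genes, 3 were called higher and none lower (12.5% and 12.1% of all genes), among them the VEGF receptor Kdr (0.68 ± 0.16) and the adhesion molecule Pecam1 (0.51 ± 0.09). The median log2 fold change of the list was 0.24. Uncalled genes went both ways, with Npr3 at 0.24 ± 0.12 and Cdh5 at -0.13 ± 0.16. Nfatc1 (-0.42 ± 0.18) and Tek (-0.25 ± 0.12) were also uncalled, and these 2 were named after their values had been seen. The sum of these 7 genes was 526.5 to 689.7 CPM in wild-type and 691.8 to 764.7 CPM in Tbx20EH1Mut.

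Sites outside the heart where HAND genes are active were also checked. Of 7 proepicardium and septum transversum genes, 2 were called higher and none lower (1 higher without the 3 set-aside libraries). The median log2 fold change of the list was -0.02. Its sum overlapped, at 59.15 to 161 CPM in wild-type and 125.5 to 166.5 CPM in Tbx20EH1Mut. Wt1, an epicardial factor, went from between 17.3 and 36.8 CPM in wild-type to between 56.9 and 86.8 CPM in Tbx20EH1Mut. The other called gene was Aldh1a2, an enzyme of retinoic acid synthesis (1.35 ± 0.46, adjusted p = 0.0498). Its call was lost in 6 of the 8 fits without 1 library. Tbx18 (-0.38 ± 0.39) and Upk3b (-0.06 ± 0.42) were not called. Of 8 pharyngeal arch and neural crest genes, 7 were tested, with 1 called higher and 1 lower. These were Dlx6 (2.40 ± 0.56, not called without the 3 set-aside libraries, adjusted p = 0.141) and Msx1 (-1.21 ± 0.18, adjusted p = 0.00159), both homeobox genes of the arches. The sum of the arch list was 83.5 to 91.4 CPM in wild-type and 46.6 to 103.3 CPM in Tbx20EH1Mut. Of 6 trophoblast genes, Gcm1 had no count in any library, Tpbpa had at most 2, Prl2c2 at most 6, and Prl3d1 at most 7 in wild-type and 57 in Tbx20EH1Mut. Of the other 2, Ascl2 rose (3.82 ± 0.29, adjusted p = 4.46e-05) from between 0.239 and 0.458 CPM to between 3.75 and 6.11 CPM, and Plac1 fell (-1.09 ± 0.32, adjusted p = 0.0286). The call of Plac1 was lost in 3 of the 8 fits without 1 library, and without the 3 set-aside libraries (adjusted p = 0.0782). What part these tissues had in the Hand1 and Hand2 differences was not tested. The fit without the 3 set-aside libraries cannot show it, since 6 of 7 foregut and endoderm genes were still called higher there. That fit also held fewer libraries, and so had less power to make calls.

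Among the partners of HAND proteins, E protein genes showed no common direction. Tcf3 (E2A) had 177.4 to 218.3 CPM in wild-type and 173.5 to 225.8 CPM in Tbx20EH1Mut, with a log2 fold change of 0.03 ± 0.12 whose sign turned with library-size scaling alone. Tcf12 (HEB) had -0.32 ± 0.22 (adjusted p = 0.287). Tcf4 (E2-2) was called higher, at 100.8, 51.2, 50.4 and 55.9 CPM in wild-type replicates 1 to 4. In Tbx20EH1Mut replicates 1 to 4 it had 119.8, 85.7, 132.3 and 111.8 CPM. The genotypes overlapped through wild-type replicate 1, and the log2 fold change was 0.80 ± 0.23 (edgeR adjusted p = 0.0286). This call was lost in 6 of the 8 fits without 1 library, with adjusted p up to 0.0844, and without the 3 set-aside libraries (adjusted p = 0.0725).

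Of the 4 Id genes, which encode inhibitors of these dimers, 2 rose and none fell, against 12.5% of all genes called higher. Id1 had 140.5, 82.1, 95.4 and 94.3 CPM in wild-type replicates 1 to 4. Its level in Tbx20EH1Mut replicates 1 to 4 was 221.5, 181.7, 263.5 and 247.0 CPM. All mutant libraries were above all wild-type libraries (log2 fold change 1.15 ± 0.18, adjusted p = 0.00206). Id3 rose from between 114.3 and 209.3 CPM in wild-type to between 232.3 and 319.1 CPM in Tbx20EH1Mut (0.89 ± 0.19, adjusted p = 0.00827). Id2 (-0.16 ± 0.21, adjusted p = 0.591) and Id4 (-0.27 ± 0.23, adjusted p = 0.388) overlapped between the genotypes. Wild-type replicate 1 had the highest Id1, Id2 and Id3 of its genotype.

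Of 11 other bHLH genes of the Twist family and the heart, 8 were tested, 3 were called higher and none lower, against 12.5% of all genes called higher and 12.1% called lower. Hey1, a Notch target of atrial and endocardial cells, rose from between 44.8 and 68.0 CPM in wild-type to between 103.0 and 126.8 CPM in Tbx20EH1Mut (0.97 ± 0.14, adjusted p = 0.00125). Hey2, a Notch-related repressor of ventricular muscle, was not called (0.14 ± 0.13, adjusted p = 0.440). Tcf15, a factor of somite mesoderm and endothelium, rose from between 0.393 and 0.618 CPM to between 1.91 and 4.13 CPM (2.60 ± 0.33, adjusted p = 6.61e-04). Twist2 was low, at 2.13 to 4.89 and 4.12 to 7.10 CPM, and its call (0.96 ± 0.31, adjusted p = 0.0431) was lost in 6 of the 8 fits without 1 library. The call was also lost without the 3 set-aside libraries (adjusted p = 0.153). Twist1, the founding member of the family, had -0.14 ± 0.21 (adjusted p = 0.635).

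Known regulators upstream of HAND genes differed in direction. Of 16 tested, 3 were called higher and 4 lower, against 12.5% of all genes called higher and 12.1% called lower, and the median log2 fold change was -0.11. Without the 3 set-aside libraries, 4 were called higher and 3 lower. Among the ligands, Bmp2 fell from between 52.1 and 69.0 CPM in wild-type to between 18.0 and 33.8 CPM in Tbx20EH1Mut (-1.26 ± 0.18, adjusted p = 0.00132). Bmp5 was called lower (-1.23 ± 0.37, adjusted p = 0.0339), but wild-type replicate 1 (9.71 CPM) lay within the mutant range of 7.25 to 14.6 CPM. The call was lost in 6 of the 8 fits without 1 library, and without the 3 set-aside libraries (adjusted p = 0.0734). Bmp4 rose from between 47.7 and 57.2 CPM to between 92.6 and 120.5 CPM (1.03 ± 0.12, adjusted p = 3.78e-04). Edn1, the endothelin ligand that acts on Hand2 in the arches, rose from between 10.6 and 17.8 CPM to between 26.2 and 34.8 CPM (1.16 ± 0.18, adjusted p = 0.00167). The other BMP ligands of the list, Bmp7 (0.04 ± 0.12, adjusted p = 0.821, with a sign that turned with library-size scaling alone) and Bmp10 (-0.11 ± 0.11, adjusted p = 0.474), were not called, and they were named after their values had been seen.

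Among the transcription factors, Foxh1, a partner of Smad proteins, fell from between 15.8 and 40.5 CPM to between 8.75 and 13.9 CPM (-1.27 ± 0.26, adjusted p = 0.00639). Tbx5, a T-box factor of the left ventricle and atria, fell from between 98.1 and 107.6 CPM to between 52.3 and 66.9 CPM (-0.80 ± 0.11, adjusted p = 9.92e-04). Isl1, the LIM factor of the second heart field, rose from between 12.5 and 26.1 CPM to between 77.9 and 170.8 CPM (2.60 ± 0.30, adjusted p = 3.78e-04). Nkx2-5, a homeobox factor of heart muscle, stood at 408.7 to 532.9 CPM in wild-type and 379.5 to 554.2 CPM in Tbx20EH1Mut (-0.06 ± 0.16, adjusted p = 0.799), with a sign that turned under upper-quartile scaling. Gata4, which acts on both HAND genes, had -0.49 ± 0.15 (adjusted p = 0.0319), just short of the fold threshold. Its log2 fold change was beyond that threshold with library size alone (-0.56) and without wild-type replicate 1 (-0.59). Its adjusted p exceeded 0.05 in 6 of the 8 fits without 1 library, where it ranged from 0.0105 to 0.0867. It also did so without the 3 set-aside libraries (adjusted p = 0.0903). Bmp4, Edn1, Tbx5 and Gata4 were named after their values had been seen.

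**Figure D3:**
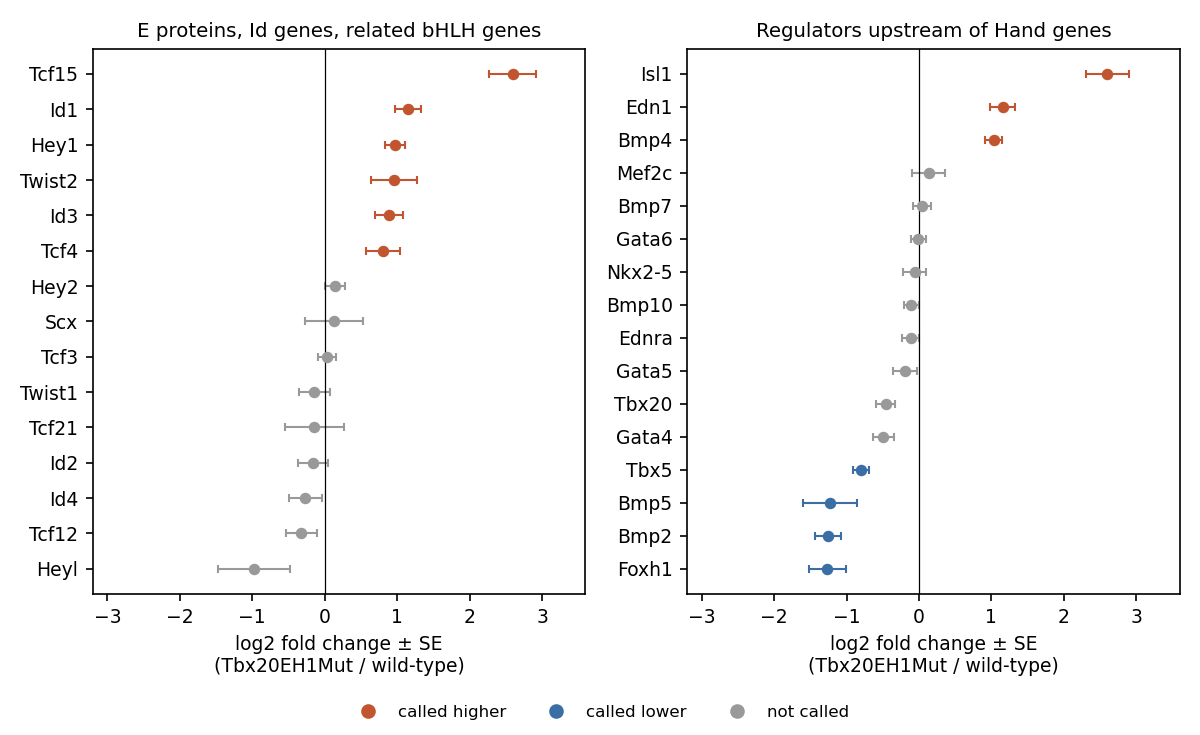
Log2 fold change (Tbx20EH1Mut over wild-type) with its SE for tested E protein, Id and related bHLH genes (left) and for regulators upstream of HAND genes (right), 4 libraries per genotype; colours give the call. Id1 (1.15), Id3 (0.89) and Isl1 (2.60) lie to the right, and Foxh1 (-1.27), Bmp2 (-1.26) and Bmp5 (-1.23) to the left.

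Genes listed for the left ventricle and outer curvature, where Hand1 is known, were mixed, and some of them are also known from the atria. Of 10, 2 were called higher and 4 lower (median log2 fold change -0.17), against 12.5% of all genes called higher and 12.1% called lower. Nppa, the atrial natriuretic peptide of chamber muscle, had 602.4, 347.8, 390.1 and 484.5 CPM in wild-type replicates 1 to 4. It had 152.4, 146.0, 110.8 and 163.2 CPM in Tbx20EH1Mut replicates 1 to 4, and the genotypes were well apart (-1.67 ± 0.19, adjusted p = 3.94e-04). Gja5, a gap junction protein of the trabeculae and atria, fell from between 42.1 and 73.5 CPM to between 11.8 and 24.5 CPM (-1.72 ± 0.25, adjusted p = 0.00135). Cited1, a transcriptional cofactor of left ventricular muscle, fell from between 74.7 and 218.6 CPM to between 28.7 and 44.5 CPM (-2.04 ± 0.30, adjusted p = 0.00138). The fourth gene called lower was Tbx5, described above.

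Irx3, a homeobox gene of the trabeculae, went the other way, from between 25.0 and 39.9 CPM to between 73.3 and 89.6 CPM (1.34 ± 0.15, adjusted p = 3.01e-04). Pln, the regulator of the muscle calcium pump, was also called higher (0.74 ± 0.23, adjusted p = 0.0341). Its call was lost in 5 of the 8 fits without 1 library, and without the 3 set-aside libraries (adjusted p = 0.0876). Pln was named after its value had been seen. Nppb, the second natriuretic peptide, was not called with all libraries (0.56 ± 0.27, adjusted p = 0.141). It passed the threshold without wild-type replicate 1 (0.76, adjusted p = 0.0457) and without the 3 set-aside libraries (0.72, adjusted p = 0.0312). Smpx, a small muscle protein, was not called (-0.24 ± 0.24, adjusted p = 0.458). The log2 fold change of Hand1, -2.51, was below that of every one of these 10 genes.

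Among genes of the right ventricle, outflow tract and second heart field, where Hand2 is strong, more were called higher than lower. Of 12, 6 were called higher and 1 lower, with a median log2 fold change of 1.19, against 12.5% of all genes called higher and 12.1% called lower. Fgf8, a growth factor of the second heart field, rose from between 10.5 and 13.9 CPM to between 68.3 and 101.0 CPM (2.80 ± 0.15, adjusted p = 9.69e-06). Fgf10 rose from between 6.74 and 9.67 CPM to between 33.4 and 68.2 CPM (2.40 ± 0.26, adjusted p = 2.86e-04). Osr1, a factor of the posterior second heart field, rose from between 7.05 and 8.89 CPM to between 9.98 and 40.2 CPM (1.52 ± 0.35, adjusted p = 0.0106). Hand2, which is known from the same cells and from others, was not called. Each mutant library was below its wild-type levels, a separation that 15.7% of all genes tested showed.

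Wnt11, an outflow tract ligand, was not called (-0.31 ± 0.12, adjusted p = 0.0804). Irx4, a ventricular homeobox gene, was the member called lower (-0.62 ± 0.13, adjusted p = 0.00758), and it was named after its value had been seen. Without the 3 set-aside libraries, 6 of the list were called higher and none lower. The summed level of the list was 338.4 to 352.9 CPM in 3 wild-type libraries, 445.7 CPM in wild-type replicate 2 and 610.1 to 820.8 CPM in Tbx20EH1Mut. Isl1, Tbx5, Bmp10, Twist1 and Tcf21 each belong to more than 1 of the lists described.

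**Figure D4:**
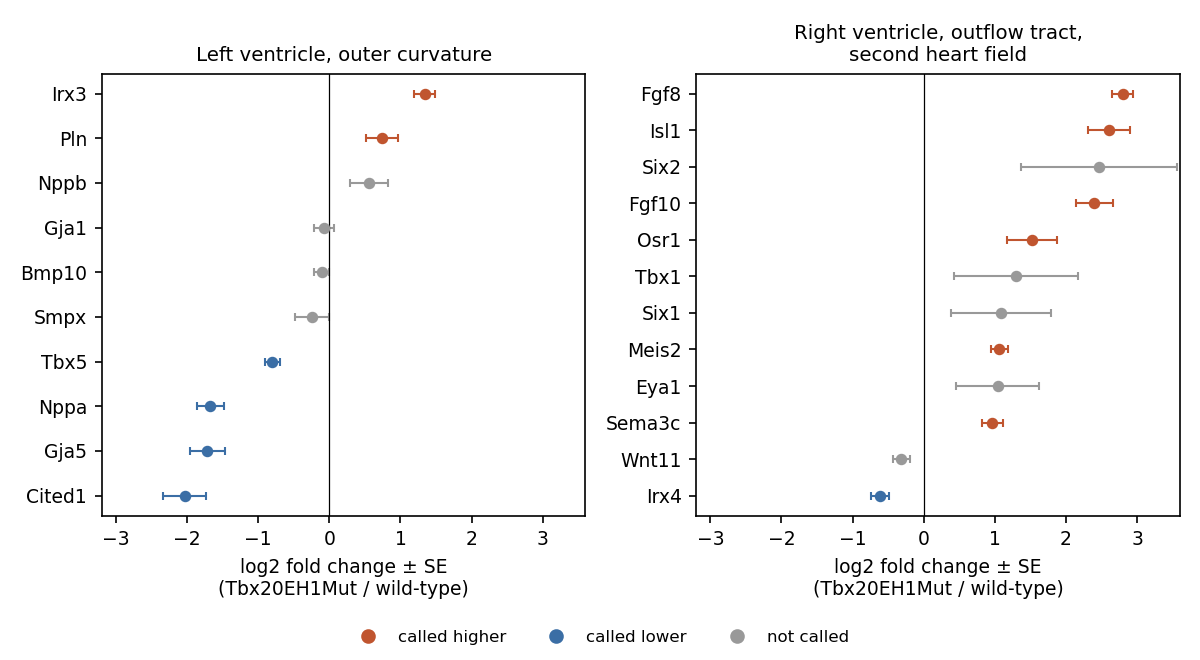
Log2 fold change (Tbx20EH1Mut over wild-type) with its SE for genes of the left ventricle and outer curvature (left) and of the right ventricle, outflow tract and second heart field (right), 4 libraries per genotype; colours give the call. On the left, 4 genes are called lower and 2 higher, and on the right 1 lower and 6 higher.

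The genes whose level followed each paralog most closely over the 8 libraries were found by Pearson's r of log2 CPM among 10500 genes. These genes were tested, reached a mean of 5 CPM and had a symbol other than a predicted-gene, Rik or accession-style name. The r values describe libraries that share a genotype split, and depth and tissue content are shared between genes of one library. For Hand1 the 5 closest were Nsun4, a mitochondrial RNA methyltransferase (r = 0.997), Cenpi, a centromere protein (0.995), Txndc11 (0.995), Gtse1, a microtubule-associated protein of dividing cells (0.993), and Ehd2, a protein of caveolae (0.992). Their log2 fold changes lay between -1.14 and -0.62, all smaller in size than that of Hand1. For Hand2 they were Pcsk5, a proprotein convertase (r = 0.987), Kcnh7, a potassium channel (0.984), Cox18, an assembly factor of the respiratory chain (0.980), Rint1 (0.980) and Rec8, a meiotic cohesin (0.978). Their log2 fold changes lay between -1.51 and -0.25. The 2 lists of 5 shared no gene, but lists this short cannot show how far the patterns differ. Between Hand1 and Hand2 r was 0.949. By r, Hand2 ranked 288 in likeness to Hand1, and Hand1 ranked 36 in likeness to Hand2.

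**Figure D5:**
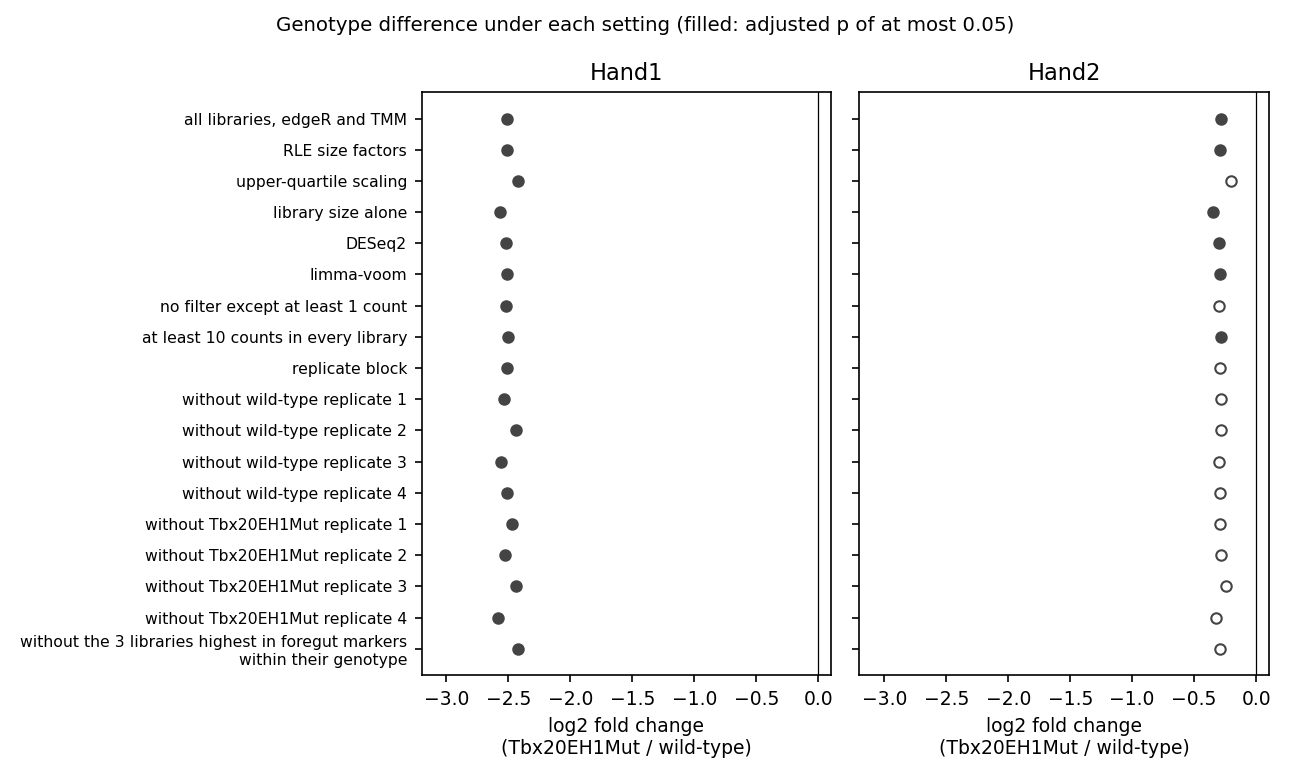
Log2 fold change (Tbx20EH1Mut over wild-type) of Hand1 and Hand2 in the fit as reported and under each alternative setting; a filled point has an adjusted p of at most 0.05. Hand1 stays between -2.58 and -2.42 with every point filled, whereas Hand2 stays between -0.35 and -0.20 and is open without any 1 library.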

How the data were processed

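Libraries of poly-A selected RNA were prepared and read as pairs of 150 bases at a company. The submitters' processing notes name Trimmomatic 0.36, STAR 2.5.2b and GRCm38 (mm10). The counting tool and its strand setting are not given in the sources used here. The authors deposited raw counts of 49315 Ensembl genes per library, of which 48970 were matched to a GENCODE M21 symbol. Libraries of the same genotype all differed from each other beyond sampling noise. Counts were fitted in R 4.3.3 with edgeR 4.0.16 (filterByExpr, TMM, quasi-likelihood test, genotype as the only term), with Benjamini-Hochberg adjustment over 17163 genes. The SE of a log2 fold change was taken from the same test. Calls needed an adjusted p of 0.05 or less and a log2 fold change of 0.5 or more in size. Ratios within libraries, with 0.5 counts added, were compared by exact two-sided permutation over 70 arrangements. The fit was tested on simulated data.

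The alternatives were RLE, upper-quartile and unscaled library sizes, DESeq2 1.42.0, limma-voom (limma 3.58.1), 2 other filters, a replicate block and leaving out each library. Setting aside wild-type replicate 2 with Tbx20EH1Mut replicates 1 and 2, the highest in foregut markers within their genotype, was added after the data had been seen. The rule for named genes gave, per list, all E protein and Id genes and otherwise up to 4 called members with the largest change and 2 uncalled members with the highest level, plus neighbours within 100 kb and the 5 genes most alike in pattern. Genes named outside it are marked in the text. The members and all gene lists were chosen with earlier results of these data known. Promoter windows came from RefSeq (GRCm38.p6), in which Hand2 was matched. Python 3.11.15 was used with pandas 2.3.3, numpy 2.4.6, scipy 1.17.1 and matplotlib 3.10.9.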

Additional observations from a re-analysis of the deposited data

Results flagged for a closer look

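In 3 of 42 groups of 4 libraries examined, 1 library stood apart from the other 3 by Dixon's criterion, which chance gives in about 1 in 20 groups. The log2 ratio of Hand1 to the summed cardiomyocyte markers was -11.56 in Tbx20EH1Mut replicate 3 and -10.93 to -10.81 in the other mutant libraries. The summed right ventricle, outflow tract and second heart field markers reached 445.7 CPM in wild-type replicate 2, against 338.4 to 352.9 CPM in the other wild-type libraries. The summed foregut and endoderm markers reached 60.9 CPM in the same library, against 1.08 to 8.27 CPM. Neither Hand1 nor Hand2 had a library that stood apart in its own level.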

How the results depend on the processing

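Hand1 kept its direction and its call under every alternative run, with log2 fold changes of -2.57 to -2.42, and of -2.58 to -2.44 when 1 library was left out. The genotype difference in the log2 ratio of Hand1 to Hand2 stayed between -2.26 and -2.16. Hand2 kept its direction, but its edgeR adjusted p exceeded 0.05 with upper-quartile scaling (-0.20, adjusted p = 0.154), with no filter except 1 count (-0.30, adjusted p = 0.104), without the 3 libraries highest in foregut markers within their genotype (-0.29, adjusted p = 0.117), and in all fits without 1 library (-0.32 to -0.25). The cause was not tested. With the median of the markers, the genotype difference in the log2 ratio of Hand2 to cardiomyocyte markers passed the exact test (-0.88). The gene at that median differed between the genotypes. The difference also passed the exact test without Tbx20EH1Mut replicate 1 (-0.47), and ranged from -0.47 to -0.21 without 1 library. The difference in the ratio of Hand2os1 to Hand2 passed it without wild-type replicate 1 (0.72), with a range of 0.37 to 0.72 without 1 library. Uncalled genes changed sign as follows. Tcf3 had -0.024 with library size alone, -0.0299 without the 3 libraries, and -0.0345 to 0.1147 without 1 library. Nkx2-5 had 0.0206 with upper-quartile scaling, 0.0867 without the 3 libraries, and -0.1441 to 0.038 without 1 library. Bmp7 had -0.0257 with library size alone and -0.0232 to 0.1414 without 1 library, and Bmp10 0.0153 without the 3 libraries. Without 1 library, Id2 ranged from -0.3201 to 0.023 and Twist1 from -0.2637 to 0.0407. The number of genes called was 4218, with 3681 to 5251 over the alternatives on all libraries and from 2836 when wild-type replicate 4 was left out up to 5667 when replicate 1 of the wild-type was.

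The sources used here do not say whether the shared replicate numbers pair the libraries, and they were not used as pairs in the main fit. Correlations of same-numbered deviations ran from -0.35 to 0.38, and only 1 of 4 exceeded 0.1. Such deviations also carry differences in tissue content, so these correlations cannot exclude a pairing. With the replicate block, Hand1 had -2.51 (adjusted p = 3.55e-04), Hand2 -0.29 (adjusted p = 0.106), and 3681 genes were called. No wild-type library correlated best with the mutant library of its own number. Genes near 1 CPM are the least precise, and without the strand setting reads of overlapping antisense genes cannot be told apart. An older antisense gene inside the Hand2 exons (18.8% of their bases) had 0 counts in all libraries. All 443 exon bases of that gene lie in Hand2 exons. With the strand setting unknown, its 0 cannot show whether Hand2 reads there were dropped. Any effect on the level of Hand2 per kb was not tested.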
